A study of Homo sapiens with 6 samples.

Results

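The transcription factors that set B cell and plasma cell identity were read in MM1S, an established cell line grown from a human multiple myeloma, the plasma cell cancer. The set held 10 genes: the plasma cell factors IRF4, PRDM1, XBP1 and POU2AF1, the B cell factors BCL6, PAX5, EBF1 and BACH2, and the Ikaros family factors IKZF1 and IKZF3. Their members were the probe sets annotated to one of these symbols alone, 33 of the 54613 probe sets on the array, of which 10 read plasma cell factors, 11 B cell factors and 12 Ikaros family factors. RNA came from MM1S cells in normoxia on 3 arrays and from MM1S cells after 24 h of hypoxia on 3 arrays, each numbered 0 to 2, to compare transcript levels between the conditions. Both groups share the one cell line, with an oxygen level not given in the sources used here. Nothing says that the arrays of a group came from separate cultures, so a p-value speaks only for the spread among these arrays, which may be technical.

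A B cell becomes a plasma cell when one set of transcription factors gives way to another. PAX5 and EBF1 hold the B cell program in place, BCL6 governs the germinal centre stage and BACH2 delays differentiation, partly by keeping PRDM1 silent. PRDM1 represses the B cell program, XBP1 expands the secretory apparatus, and IRF4, on which myeloma cells depend, acts above both. POU2AF1 is a coactivator of octamer-binding factors in B cells and plasma cells, and IKZF1 and IKZF3 are the zinc finger factors that lenalidomide and related drugs send to the proteasome.

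The genes that moved most here were B cell factors, so the sequences just before a transcription start of BCL6 and of PAX5 are shown, with that before a start of XBP1 for a plasma cell factor. BCL6 and XBP1 each had a further start site, not shown. They were taken from RefSeq on GRCh38.p14, run 5′ to 3′ on the strand of the gene, and cover the 250 bases before the start at chr3:187745469-187745718 (minus strand) for BCL6, chr9:37034269-37034518 (minus strand) for PAX5 and chr22:28800570-28800819 (minus strand) for XBP1. Capitals mark the letters ACGTG or GCGTG on either strand, the core of the element to which hypoxia-inducible factors are known to bind.
BCL6: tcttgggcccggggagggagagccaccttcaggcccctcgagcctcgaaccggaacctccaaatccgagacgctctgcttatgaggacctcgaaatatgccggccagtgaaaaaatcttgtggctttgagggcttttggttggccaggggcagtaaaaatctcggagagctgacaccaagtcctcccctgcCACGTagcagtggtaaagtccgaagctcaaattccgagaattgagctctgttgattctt
PAX5: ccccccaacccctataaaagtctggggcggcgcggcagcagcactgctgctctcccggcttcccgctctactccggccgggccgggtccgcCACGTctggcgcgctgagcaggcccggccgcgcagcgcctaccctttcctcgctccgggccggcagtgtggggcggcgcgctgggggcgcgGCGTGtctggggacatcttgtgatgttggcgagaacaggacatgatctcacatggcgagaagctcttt
XBP1: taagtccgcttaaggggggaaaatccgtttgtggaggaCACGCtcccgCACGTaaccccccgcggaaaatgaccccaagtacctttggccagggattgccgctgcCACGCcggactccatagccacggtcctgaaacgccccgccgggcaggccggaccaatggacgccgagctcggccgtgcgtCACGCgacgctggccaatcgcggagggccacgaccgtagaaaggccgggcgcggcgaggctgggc

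The BCL6 sequence holds 1 core, the PAX5 sequence 2 and the XBP1 sequence 4. Either core occurs in 43.2% of the 35116 RefSeq promoter windows of this length, ACGTG in 18.5% and GCGTG in 32.2%, and 3 or more cores in 7.76%. For 8 of the 10 factors the table held 13 start sites in all, and 6 of these 13 windows contained a core. EBF1 and BACH2, with 1 start site each in the table, had none in their windows, and neither did IKZF1 at any of its start sites. The further start sites of BCL6 and PRDM1 also had 0 cores, and that of XBP1 had 2. A match is a run of letters and not a measured binding site.

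Levels are given as the deposited intensity, a linear brightness per probe set. A change is the mean log2(intensity + 16) of hypoxia less that of normoxia, a scale on which dim probe sets appear to change less than they do. A probe set is said to have risen or fallen where its adjusted p in limma, with Benjamini-Hochberg adjustment over all 54613 probe sets, was below 0.05. The array medians were 54.95 to 60.1, and a probe set is called dim where it lay below the median in at least 1 array of each group, which held for 11 of the 33. Brightness cannot be compared between probe sets, and no detection calls were used, so signal at such levels cannot be told from background. Over all probe sets 30.7% passed, 15.5% upward and 15.2% downward, with a median change of 0.017.

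Among the factors, 10 of 33 probe sets rose, 0 fell and 23 did not pass in limma, beside 15.5% rising over the whole table. Without hypoxia array 1 the count fell to 6. At an unadjusted p below 0.05 14 rose and 1, a BACH2 probe set, fell. Those that rose were spread over 8 of the genes, the exceptions being XBP1 and BACH2. Taking each gene by its brightest probe set, 3 of 4 B cell factors rose (BCL6, PAX5 and EBF1), while 0 of 4 plasma cell factors and 0 of 2 Ikaros family factors passed, against 34.6% of all 19775 genes read this way passing in either direction and 15.6% rising. The probe set of BCL6 was its brightest only through the hypoxia arrays: with each gene read by its brightest probe set in normoxia, 2 of 4 B cell factors rose (PAX5 and EBF1), and their median change was 0.85. The groups of arrays did not overlap for 18 of the 33 factor probe sets, beside 42.5% over the table, and for 7 of the 10 brightest, beside 47.9% of genes. How often a probe set passed depended on its brightness: 12.6% did at a mean intensity under 100 over the 6 arrays, where BCL6 and BACH2 lay, 56.5% from 100 to 1000, where PAX5 and EBF1 lay, and 58.4% above, where the plasma cell and Ikaros family factors lay. The median change over the 10 brightest probe sets was 0.17, that over all genes was -0.00016, that over the 4 B cell factors was 1.46 and that over the 4 plasma cell factors was 0.16. Whether the classes differ was not tested, since the genes were chosen with earlier results known.

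**Figure D1:**
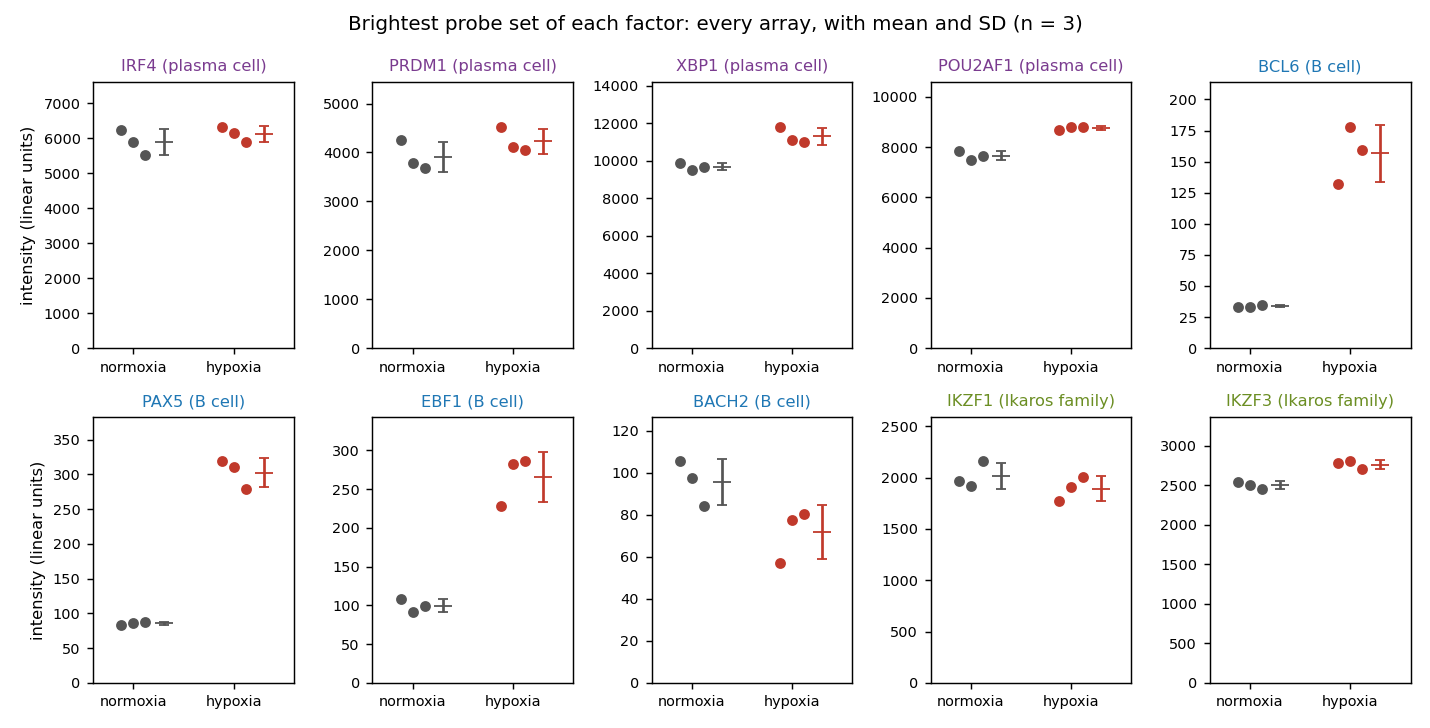
Intensity (linear units, each y axis from 0) of the brightest probe set of each of the 10 factors in every array, with the mean and SD of 3 normoxia and 3 hypoxia arrays beside the points. BCL6, PAX5 and EBF1 were higher in all hypoxia arrays than in any normoxia array at intensities of at most 319, while the normoxia and hypoxia arrays of IRF4, PRDM1 and IKZF1 overlapped at intensities from 1770 to 6329.

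BCL6, the repressor of the germinal centre B cell, showed the largest change of the 33 probe sets. Its brightest probe set, 203140_at, read 33.1, 33.3 and 34.7 in normoxia arrays 0, 1 and 2 and 132, 178 and 160 in the hypoxia arrays. All normoxia arrays lay below the array median and all hypoxia arrays well above it, with no overlap. The change was 1.79 (SE 0.11, 95% confidence interval 1.51 to 2.06, limma adjusted p = 0.000141). Because the normoxia level may be background, the true size is uncertain. The other BCL6 probe sets were dim: 228758_at went from 42.3 ± 6.24 to 62.5 ± 17.6 (SD, n = 3) and 215990_s_at from 6.77 ± 3.45 to 10.9 ± 1.32, and neither passed (limma adjusted p = 0.136 and 0.211). The rise of BCL6 therefore rests on 1 of 3 probe sets, and in normoxia 228758_at was the brightest of the 3.

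PAX5, the factor that commits cells to the B lineage and that PRDM1 is known to repress, rose nearly as much. Its probe set 221969_at read 83.4, 85.8 and 88.1 in normoxia and 319, 311 and 279 in hypoxia. The normoxia arrays were within 5 units of each other and each hypoxia array lay far above them. The change was 1.65 (SE 0.078, 95% confidence interval 1.45 to 1.84, limma adjusted p = 7.37e-05). A further probe set, 206802_at, was dim, with 3.77 ± 0.994 in normoxia and 3.38 ± 2.98 in hypoxia (SD, n = 3), so 1 of 2 probe sets rose.

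EBF1, which acts with PAX5 to open B cell genes, rose on 3 of its 4 probe sets. The brightest, 227646_at, read 108, 91.3 and 98.8 in normoxia and 229, 283 and 286 in hypoxia. Its groups did not overlap, and the lowest hypoxia array, number 0, was still more than 100 units above the highest normoxia array. The change was 1.28 (SE 0.11, 95% confidence interval 1.01 to 1.56, limma adjusted p = 0.000423). The dim 232204_at went from 17.6 ± 3.01 to 61.1 ± 16.6 (log2 change 1.18, limma adjusted p = 0.00280) and 229487_at from 43.8 ± 10.8 to 75.3 ± 4.43 (0.63, limma adjusted p = 0.0209). The call of 229487_at was lost without hypoxia array 0, 1 or 2 (limma adjusted p = 0.0503, 0.0599 and 0.0718). The dim 233261_at, at 23.9 ± 4.36 and 35.4 ± 4.80 (SD, n = 3), did not pass (limma adjusted p = 0.0590), but its arrays did not overlap between groups either.

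BACH2, the repressor that holds back plasma cell differentiation, was lower in hypoxia on both probe sets without passing. The brightest, 221234_s_at, read 105, 97.3 and 84.0 in normoxia and 56.8, 77.4 and 80.5 in hypoxia, a change of -0.36 (95% confidence interval -0.69 to -0.018, limma adjusted p = 0.111). The groups did not overlap, but normoxia array 2 and hypoxia array 2 were only a few units apart. The other, 227173_s_at, read 78.7, 95.1 and 118 in normoxia and 45.2, 83.9 and 66.2 in hypoxia, where hypoxia array 1 lay above normoxia array 0 (change -0.50, limma adjusted p = 0.145). With quantile normalization the brightest probe set passed (-0.43, limma adjusted p = 0.0488).

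The plasma cell factors were read by far brighter probe sets, and their main probe sets moved little. For IRF4, probe set 204562_at read 6239, 5903 and 5517 in normoxia and 6329, 6135 and 5884 in hypoxia, between the 98.2 and 98.7 percentile of all probe sets. The groups overlapped and the change was 0.056 (SE 0.079, 95% confidence interval -0.14 to 0.25, limma adjusted p = 0.673), so a rise above 0.25 or a fall beyond 0.14 lay outside the interval. A dimmer probe set, 216986_s_at, read 188, 157 and 151 in normoxia and 295, 281 and 233 in hypoxia, with no overlap. It rose by 0.65 (95% confidence interval 0.35 to 0.95, limma adjusted p = 0.00917). The dim 216987_at was at 11.8 ± 6.25 in normoxia and 17.9 ± 3.51 in hypoxia (SD, n = 3) and did not pass (limma adjusted p = 0.269).

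PRDM1 encodes the repressor Blimp-1. Its brightest probe set, 228964_at, read 4254, 3782 and 3683 in normoxia and 4529, 4107 and 4060 in hypoxia, where only array 0 of hypoxia exceeded all normoxia arrays. The change was 0.12 (SE 0.090, 95% confidence interval -0.10 to 0.34, limma adjusted p = 0.420). Probe set 235668_at read 1641, 1285 and 1270 in normoxia and 1986, 1310 and 1200 in hypoxia, with the array numbered 0 highest in each group (change 0.073, limma adjusted p = 0.851). The third, 217192_s_at, read 382, 355 and 350 in normoxia and 586, 496 and 434 in hypoxia and rose by 0.45 (95% confidence interval 0.16 to 0.75, limma adjusted p = 0.0325). That call was lost with a pseudocount of 1, with median centring, and without any one of normoxia arrays 0, 1 or 2 or hypoxia array 1 (limma adjusted p = 0.0504 to 0.0992).

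XBP1, the factor that builds the secretory apparatus, and POU2AF1 both lay slightly higher in every hypoxia array without passing. XBP1 probe set 200670_at read 9888, 9491 and 9642 in normoxia and 11808, 11097 and 10967 in hypoxia, a change of 0.22 (95% confidence interval 0.054 to 0.39, limma adjusted p = 0.0564). The dim 242021_at, at 37.2 ± 5.27 in normoxia and 46.7 ± 6.09 in hypoxia (SD, n = 3), changed by 0.24 (limma adjusted p = 0.186). The spliced and unspliced forms of the XBP1 transcript are not told apart by these values. POU2AF1 probe set 205267_at read 7835, 7509 and 7650 in normoxia and 8676, 8818 and 8816 in hypoxia, a change of 0.19 (95% confidence interval 0.038 to 0.35, limma adjusted p = 0.0680). Both brightest probe sets passed, with the same direction, when probe sets with a mean intensity under 100 were left out (limma adjusted p = 0.00861 for XBP1 and 0.00926 for POU2AF1). They also passed with a pseudocount of 64, with quantile normalization and with an intensity trend in limma. Neither passed with a pseudocount of 1, with median centring, with the array number as a block or without any one array. Median centring lowered the change to 0.16 for XBP1 and 0.13 for POU2AF1. Both therefore sit at the edge of the threshold. A dimmer POU2AF1 probe set, 1569675_at, read 48.0, 37.5 and 39.1 in normoxia and 71.6, 98.2 and 94.9 in hypoxia and rose by 0.85 (95% confidence interval 0.53 to 1.18, limma adjusted p = 0.00411), although its normoxia level was below the array median.

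IKZF1, which encodes Ikaros, had 9 probe sets, and its 4 brightest ones gave values close to 0. The brightest, 227346_at, read 1962, 1921 and 2158 in normoxia and 1770, 1905 and 2004 in hypoxia, with overlap (change -0.088, 95% confidence interval -0.30 to 0.12, limma adjusted p = 0.525). Probe sets 205039_s_at, 205038_at and 227344_at, with normoxia means of 983, 639.8 and 575, changed by 0.070, -0.0056 and 0.12 and did not pass. Only 220704_at passed, from 48.7 ± 7.03 to 69.6 ± 1.27 (SD, n = 3), all normoxia arrays of which were below the array median (change 0.41, limma adjusted p = 0.0224). Its call was lost with an intensity trend, without normoxia array 2 and without any one of the hypoxia arrays (limma adjusted p = 0.0533 to 0.0711). The other 4 probe sets were dim, with changes from -0.22 to 0.34, and did not pass.

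IKZF3, which encodes Aiolos, was higher in every hypoxia array than in any normoxia array on each of its 3 probe sets, yet only the dimmest passed. The brightest, 227030_at, read 2545, 2504 and 2446 in normoxia and 2781, 2800 and 2701 in hypoxia (change 0.14, 95% confidence interval -0.015 to 0.30, limma adjusted p = 0.163). Probe set 236301_at read 1112, 987 and 928 in normoxia and 1625, 1283 and 1224 in hypoxia (change 0.44, limma adjusted p = 0.0549). Probe set 221092_at read 387, 306 and 257 in normoxia and 592, 455 and 452 in hypoxia and rose by 0.64 (95% confidence interval 0.21 to 1.07, limma adjusted p = 0.0384). That call was lost with a pseudocount of 1, with median centring and without any one of the arrays except normoxia array 0 (limma adjusted p = 0.0604 to 0.110), whereas both other probe sets passed when probe sets with a mean intensity under 100 were left out (limma adjusted p = 0.0345 for 227030_at and 0.0161 for 236301_at).

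**Figure D2:**
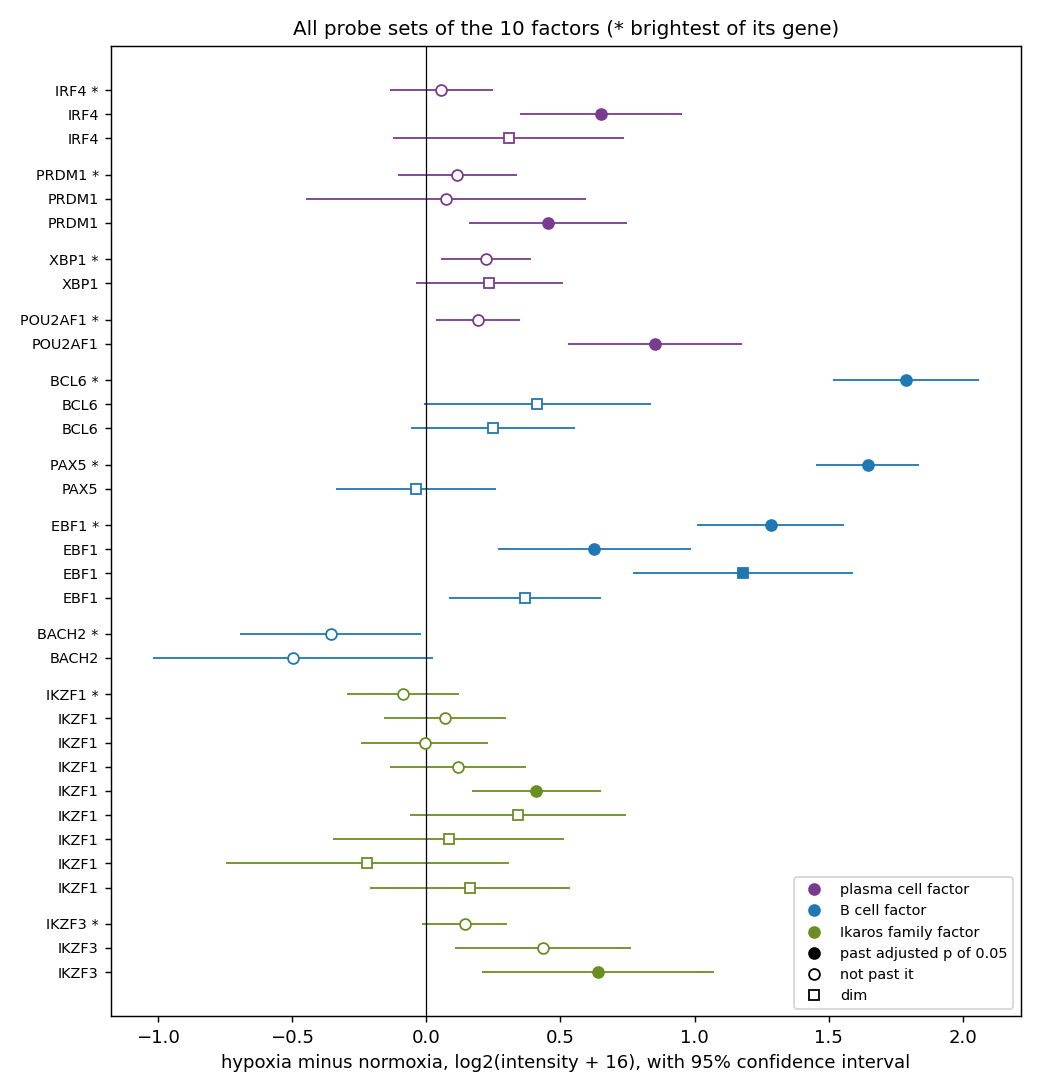
Change of each of the 33 probe sets, hypoxia minus normoxia in log2(intensity + 16) units, with its 95% confidence interval, ordered by gene and within a gene by brightness. Filled marks passed an adjusted p of 0.05 in limma, squares are dim probe sets, and an asterisk marks the brightest probe set of a gene; BCL6 (1.79), PAX5 (1.65) and EBF1 (1.28) stand farthest to the right.

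In 5 of the 7 genes whose brightest probe set did not pass, all but XBP1 and BACH2, a dimmer probe set of the same gene rose. The like share of genes over the whole table was not counted, so 5 of 7 cannot be called unusual. Genes also differed in how many dimmer probe sets they had. In POU2AF1 and IKZF1 that probe set was below the array median in every normoxia array. To test such disagreement, the log2 difference between a probe set and the brightest one of its gene was taken within each array for the 8 pairs in which both had a mean intensity of at least 100 over the 6 arrays. The 216986_s_at probe set of IRF4 lay 5.03 ± 0.0811 below the brightest in normoxia and 4.43 ± 0.12 below it in hypoxia (SD, n = 3), a difference between their changes of 0.60. The corresponding differences were 0.34 for 217192_s_at of PRDM1 and 0.50 for 221092_at and 0.29 for 236301_at of IKZF3. In these 4 pairs the arrays of the groups did not overlap, for which an exact two-sided permutation test gave p = 0.1, the smallest that 3 arrays against 3 allow (0.2 after Benjamini-Hochberg adjustment over the 8 pairs). The other 4 pairs, of PRDM1 and IKZF1, differed by -0.043 to 0.21 (exact permutation p = 0.2 to 0.8). Over the whole table, among 3452 dimmer probe sets with a mean intensity of at least 100 whose gene's brightest probe set did not pass, 16.8% rose and 20.7% fell. These shares are of probe sets and not of genes, and the POU2AF1 and IKZF1 probe sets that rose lay under that intensity. Which transcripts each probe set reads was not examined.

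Averaged in each array, the log2 value of the 4 plasma cell factors was 12.72, 12.63 and 12.61 in normoxia and 12.85, 12.79 and 12.76 in hypoxia, while that of the 4 B cell factors was 6.53, 6.47 and 6.46 in normoxia and 7.43, 7.68 and 7.62 in hypoxia, each gene by its brightest probe set. The difference between the classes went from 6.17 ± 0.0218 to 5.22 ± 0.17 (SD, n = 3), a shift of -0.94 with no overlap between the groups of arrays. The mean of both classes was higher in hypoxia, by 0.15 for the plasma cell factors and by 1.09 for the B cell factors, of which BACH2 was lower. With each gene read by its brightest probe set in normoxia, which exchanges the probe sets of BCL6 and BACH2, the shift was -0.56. It was -0.59 with IKZF1 and IKZF3 counted as B cell factors and -0.19 with the mean of all probe sets of each gene. In that last setting the groups of arrays overlapped, with differences of 3.43 to 3.64 in normoxia and 3.21 to 3.52 in hypoxia. The plasma cell factors were then higher in hypoxia by 0.33 and the B cell factors by 0.51. The absolute gap between the classes has no meaning, because probe sets differ in brightness.

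**Figure D3:**
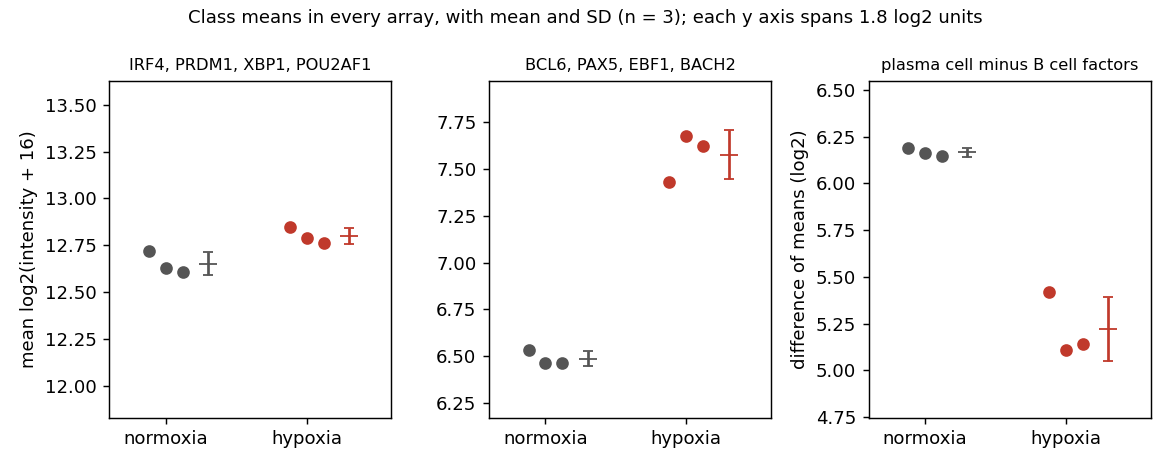
Mean log2(intensity + 16) of the brightest probe sets of the 4 plasma cell factors and of the 4 B cell factors in every array, and their difference, with the mean and SD of 3 arrays per group. The plasma cell factors lay between 12.61 and 12.85, the B cell factors went from at most 6.53 to at least 7.43, and the difference fell by 0.94.

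The genes around these factors were read by their brightest probe sets, in lists chosen with earlier results of these data known. Across all genes read this way 15.6% rose and 19.1% fell. Of 22 other B cell stage factors, 2 rose, 9 fell and 11 did not pass, with a median change of -0.16. With a pseudocount of 64, an intensity trend or probe sets with a mean intensity under 100 left out, 5 rose, and with quantile normalization 4 rose. The progenitor factor MYB fell from 1528 ± 66.2 to 369 ± 33.9 (SD, n = 3; -2.01, limma adjusted p = 6.89e-05). KLF2, a factor of lymphocyte quiescence and trafficking, fell from 1037 ± 56.2 to 290 ± 18.8 (-1.78), and ID2, an inhibitor of the E proteins that activate EBF1 and PAX5, from 1054 ± 88.0 to 270.4 ± 17.6 (-1.90). POU2F2, the octamer-binding partner of POU2AF1, rose from 525 ± 45.2 to 1183 ± 52.4 (1.15, limma adjusted p = 0.000279), and 4 of its 6 other probe sets rose too. A dim second probe set of KLF2 and a second one of MYB, at 65.8 in normoxia, did not pass.

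Among 15 partners of the plasma cell factors, 4 rose, 2 fell and 9 did not pass (median 0.13). Without any one of hypoxia arrays 1 and 2 or normoxia arrays 0, 1 and 2, 3 rose and 1 fell, and without hypoxia array 0 the counts were 4 and 1; with an intensity trend they were 6 and 4. ZBTB20, a plasma cell survival factor, went from 48.2 ± 2.98, below the array median, to 264 ± 8.93 (2.13, limma adjusted p = 5.28e-05), and 9 of its 11 other probe sets rose with it. The sensors of the unfolded protein response ERN1, whose product splices the XBP1 transcript, and ATF6 rose from 2007 ± 182 to 3964 ± 204 (0.98) and from 2116 ± 89.8 to 3379 ± 4.52 (0.67). The dimmest of 3 ERN1 probe sets did not pass. One of the 4 ATF6 probe sets, at 1746 in normoxia and 1616 in hypoxia, did not pass. HDAC2, a histone deacetylase recruited by repressors, fell from 3578 ± 97.9 to 2598 ± 176 (-0.46, limma adjusted p = 0.00608).

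More of the secretory genes known as targets of XBP1 fell than rose. Of 23 measured, 1 rose, 9 fell and 13 did not pass, with a median change of -0.19, while XBP1 itself was at 0.22. With an intensity trend 14 fell and 3 rose. SRPRB, a subunit of the signal recognition particle receptor, fell from 3491 ± 67.3 to 1198 ± 43.6 (-1.53, limma adjusted p = 6.47e-05), with both of its other probe sets. CRELD2, secreted under endoplasmic reticulum stress, fell from 1375 ± 90.4 to 549 ± 61.5 (-1.30). The chaperone gene DNAJB11 fell by 0.60, and SEC61A1, the channel of the translocon, fell by 0.61. All 23 lay above the array median in every array.

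B cell genes known to be driven by PAX5 and EBF1 or repressed by PRDM1 did not move as one group. Of 16 measured, 2 rose, 3 fell and 11 did not pass (median 0.0084). Without any one of normoxia arrays 0 and 1 and hypoxia arrays 1 and 2, 2 fell, and the number that rose was 1 without hypoxia array 1 or 2 and 3 without normoxia array 1. BLNK, the adaptor of the B cell receptor, rose from 2097 ± 108 to 4377 ± 180 (1.06, limma adjusted p = 0.000214). CD72, a coreceptor read by a dim probe set, rose from 26.7 ± 9.95 to 58.8 ± 5.25 (0.84, limma adjusted p = 0.0175), a call lost without hypoxia array 1 or 2 (limma adjusted p = 0.0586 and 0.0621). MS4A1, the gene of CD20, fell from 246 ± 1.95 to 66.9 ± 9.99 (-1.67, limma adjusted p = 0.000132), with all 3 of its other probe sets. CR2, a complement receptor, fell from 504 ± 9.69 to 227 ± 26.0 (-1.10), although a dim second probe set rose from 6.12 to 24.8.

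Of 12 genes known to be repressed by BCL6, 1 rose, 4 fell and 7 did not pass (median -0.11). The checkpoint kinase genes CHEK1 and ATR fell from 2175 ± 117 to 1014 ± 38.7 (-1.09) and from 2394 ± 72.9 to 1347 ± 31.9 (-0.82). The chemokine receptor gene CXCR4 fell by 0.47, and CDKN1B, a cell cycle inhibitor, rose from 4576 ± 194 to 6494 ± 181 (0.50, limma adjusted p = 0.00263). The probe sets of CHEK1 disagreed: 3 fell and 1, at 126 in normoxia and 363 in hypoxia, rose by 1.43.

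**Figure D4:**
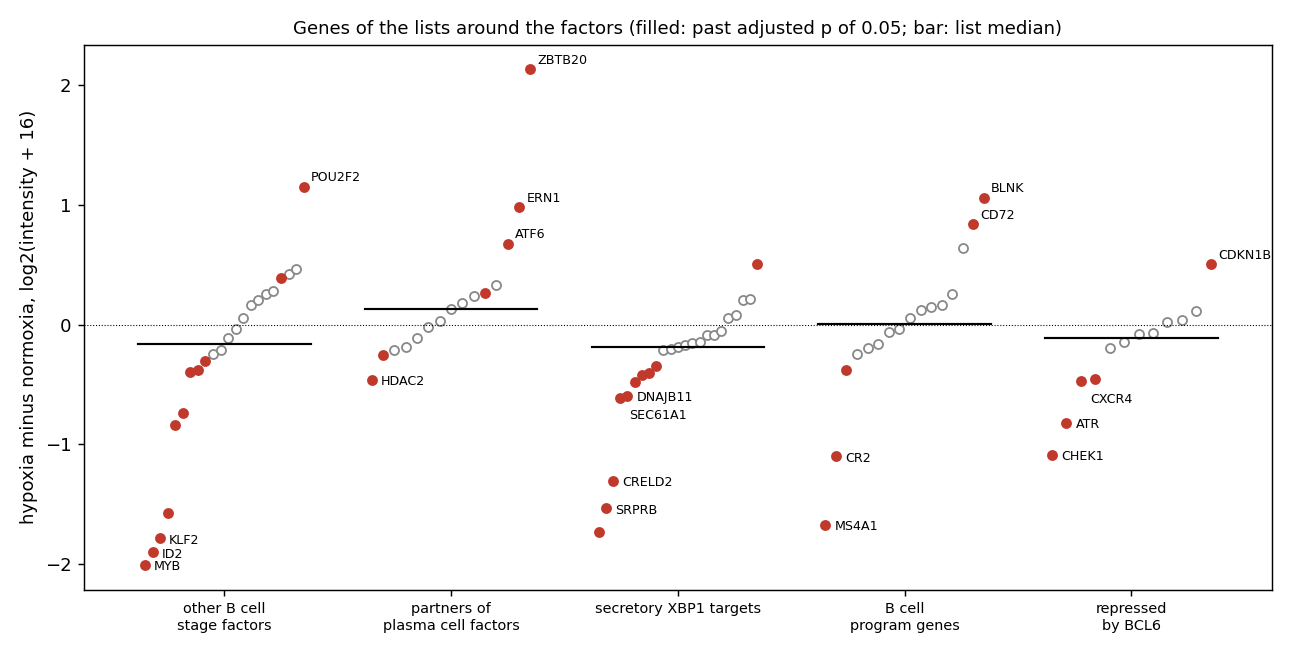
Change of each gene of the 5 lists around the factors, hypoxia minus normoxia in log2(intensity + 16) units, by its brightest probe set. Filled points passed an adjusted p of 0.05 in limma, the bars are list medians, and the genes named by the rule are labelled; 9 of 23 secretory genes fell and 1 rose.

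The plasma cell label was checked against markers. Of 7 plasma cell markers, 6 were above the array median in every array, the exception being CD27. Their summed level was 35671 to 36613 in normoxia and 32778 to 33529 in hypoxia. Sums of different marker lists cannot be compared with each other, since brightness differs between probe sets and the brightest ones lead each sum. In limma 4 fell and 0 rose, beside 19.1% of all genes falling and 15.6% rising. The 4 that fell were SDC1 (-0.30), CD38 (-0.71), SLAMF7 (-0.34) and MZB1 (-0.26). The largest terms of the sum, JCHAIN (12176 in normoxia and 12699 in hypoxia) and TNFRSF17 (9439 and 8526), did not pass, and neither did CD27. The summed level of 6 B cell markers was 1228 to 1243 in normoxia and 805 to 865 in hypoxia. Of these 6, MS4A1 and CR2 fell and 4 did not pass, with a median change over the 6 of -0.027. Those 4 were CD79A (0.14), CD79B (0.16), CD22 (-0.20) and BLK (0.64), the last read by a dim probe set. The 6 T cell markers summed to 927 to 1103 and 719 to 793, where TRAT1 fell from 756 to 494, CD3D rose from 98.3 to 132 (limma adjusted p = 0.0485) and 4 did not pass. Further, 5 myeloid markers summed to 148 to 158 and 143 to 200, and 4 epithelial markers to 54.4 to 71.6 and 98.0 to 108, where EPCAM rose. The part of other cells in these results was not tested.

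The profiles most like those of 3 factors were sought among 14616 to 14618 probe sets of other genes with a mean intensity of at least 200, by the root mean square distance of centred log2 values over the 6 arrays. Nearest to IRF4 were SPAST, RBM27, PHC1, EIF4B and CEP290, at distances of 0.019 to 0.024 and changes of 0.021 to 0.092. Nearest to XBP1 were TAF10, RC3H2, TNIP2, SMARCA4 and PCYOX1L, at 0.015 to 0.019 and changes of 0.19 to 0.25. Nearest to BCL6 were EGLN1, the oxygen sensor gene, at 0.061 with a change of 1.83 on its probe set 224314_s_at, then ZNF451, SCAF11, CTSK and NAV2, at up to 0.081 and changes of 1.67 to 1.75. With 2 groups of arrays this measure mostly ranks genes by the size of their change. EGLN1, ZNF451, SCAF11 and CTSK reached a mean of 200 only through the hypoxia arrays, as the BCL6 probe set was its brightest only through them. A link between these genes and BCL6 was not tested.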

How the data were processed

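For every array the deposited table lists a linear intensity of each probe set. Per the labels' protocols, RNeasy was used to isolate RNA, which was amplified into biotin-labelled cRNA. The authors' background correction, probe summary and scaling were steps not given in the sources used here. Groups came from the condition label and array numbers from the titles; the treatment text was the same on all arrays and did not set the groups. Single-symbol probe sets (41091, of which 41037 matched a RefSeq gene table for symbols) were named through the platform annotation; 1801 with several symbols and 11721 with none were not named.

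Intensities were turned into log2(intensity + 16) and fitted with limma 3.58.1 (lmFit, eBayes; R 4.3.3) over all 54613 probe sets, two-sided, with no covariates. The procedure was tested on simulated data in which the arrays varied independently. Only probe sets with a mean intensity of at least 100 were given a change there, so recovery of dimmer ones was not tested. The number of arrays limits the precision. Pairs of arrays shared 1.07% to 1.23% identical values, fewer than the 2.44% to 2.58% of values at 1 in each array, so no array is a copy of another, and each was counted as 1 sample. The SD of log2 differences was 0.27 to 0.35 within groups and 0.57 to 0.63 between them. Named were all factor probe sets, up to 4 genes per list with the smallest adjusted p, and the 5 nearest profiles of IRF4, XBP1 and BCL6; marker genes and all exceptions were named after their values were seen. Listed genes without a probe set of their symbol alone were not analysed here. Pairs of probe sets were chosen after the data were seen. The factors and lists were chosen with earlier results of these data known.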

Additional observations from a re-analysis of the deposited data

How the results depend on the processing

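The 3 B cell factors that rose by their brightest probe set, BCL6, PAX5 and EBF1, kept their direction and call on those probe sets under every alternative run that tested them; the BCL6 probe set was left out by the minimum mean intensity of 100. With each gene read by its brightest probe set in normoxia, chosen after seeing the data, BCL6 did not pass (0.41, limma adjusted p = 0.136) and the shift below was -0.56. The number of factor probe sets called (10) ranged from 6 to 9 when each array was left out in turn and from 8 to 14 under the other alternatives. With quantile normalization 13 rose and 1 fell. The shift of plasma cell minus B cell factors (-0.94) was -1.09 with a pseudocount of 1, -0.66 with a pseudocount of 64, -0.59 with Ikaros family factors added to the B cell factors and -0.19 with the mean of all probe sets of a gene, and it ranged from -1.04 to -0.89 over the arrays left out. With the mean of all probe sets of a gene the normoxia and hypoxia arrays overlapped. Over all probe sets 16770 were called (13736 to 16112 with an array left out), and in the related lists 36 genes (30 to 34). Leaving out both arrays numbered 0, chosen after seeing the data, gave 9 factor probe sets and a shift of -1.03.

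The array numbers were not taken as pairs, since deviations of same-numbered arrays correlated at 0.21, 0.0082 and 0.19 over all probe sets, and hypoxia array 1 correlated best with normoxia array 2; over brighter probe sets, also seen, the values were 0.54, 0.20 and 0.54. With the replicate block 11 factor probe sets were called, the addition being 236301_at of IKZF3 (limma adjusted p = 0.0207), and no other factor call changed. Dim probe sets limit what can be read: 11 of the 33 were below the array median in at least 1 array of each group, and neither the background level nor the absence of a transcript could be settled.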
